A study of Homo sapiens with 2 samples.

Results

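The genes described here code for the extracellular matrix, here in SK-N-BE(2)-C, a human neuroblastoma cell line in long use. They comprise every collagen chain gene (COL, a number, A, a number) and every laminin chain gene (LAMA, LAMB, LAMC) in the authors' gene table, together with 12 genes named by symbol: FN1, SPARC, NID2, TNC, LOX, LOXL2, TIMP1, TIMP2, TIMP3, HTRA1, ECM1 and HSPG2. That gave 43 collagen genes, 12 laminin genes and 12 others, 67 of the 36027 genes in the table. Single cells were sequenced from the subline SK-N-BE(2)-C-pIND-HRASV12, in which doxycycline switches on HRASV12, an always active variant of the RAS protein HRAS. The HRASV12 induced library came from cells given 100 ng/ml doxycycline for 13 days, and the uninduced control library from cells of the same subline left untreated. Since the controls received no doxycycline, effects of the drug and of HRASV12 cannot be told apart, and the sources used here do not say whether the subline was 1 clone. Each group had 1 library, which allows neither a test nor a check between replicates. Differences therefore describe these 2 libraries alone. Intervals are exact 95% intervals that cover counting error only, except an interval over genes that is named as such.

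The extracellular matrix is the network of secreted proteins that cells sit on and in. Basement membranes are sheets built from collagen IV and laminin networks that nidogen and perlecan hold together, and they underlie blood vessels and epithelia. Interstitial matrix is built from fibrillar collagens on a scaffold of fibronectin, is crosslinked by lysyl oxidases, and is cut by metalloproteinases that TIMP proteins inhibit. Neuroblastoma lines grow in an adrenergic or a mesenchymal state, and the mesenchymal state is known for its matrix genes.

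COL4A1 and COL4A2 are shown first because their 2 chains assemble into 1 protein and their genes stand head to head. Their promoter windows, from 250 bases before to 50 after each RefSeq gene start in GRCh38.p14, lie at chr13:110307108-110307407 on the minus strand and chr13:110307034-110307333 on the plus strand. The windows share 226 bases, chr13:110307108-110307333, which are printed in capitals and are read on opposite strands in the 2 genes. ECM1, at chr1:150507859-150508158 on the plus strand, is shown as the gene with the highest ratio among those of at least 10 CPM, with 2 matches to the AP-1 motif TGANTCA in capitals. FN1, at chr2:215436019-215436318 on the minus strand and chosen after its values were seen, holds 1 match to the cyclic AMP response element TGACGTCA, also in capitals. COL8A1 had the lowest ratio at that level.
COL4A1: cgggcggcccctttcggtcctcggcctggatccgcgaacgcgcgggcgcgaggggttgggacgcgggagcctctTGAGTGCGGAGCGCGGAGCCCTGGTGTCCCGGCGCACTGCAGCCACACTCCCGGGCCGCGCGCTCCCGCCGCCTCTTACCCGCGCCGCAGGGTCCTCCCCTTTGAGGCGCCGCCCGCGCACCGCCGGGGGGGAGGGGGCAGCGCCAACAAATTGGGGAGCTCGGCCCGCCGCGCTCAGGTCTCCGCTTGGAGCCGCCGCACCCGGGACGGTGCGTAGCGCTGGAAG
COL4A2: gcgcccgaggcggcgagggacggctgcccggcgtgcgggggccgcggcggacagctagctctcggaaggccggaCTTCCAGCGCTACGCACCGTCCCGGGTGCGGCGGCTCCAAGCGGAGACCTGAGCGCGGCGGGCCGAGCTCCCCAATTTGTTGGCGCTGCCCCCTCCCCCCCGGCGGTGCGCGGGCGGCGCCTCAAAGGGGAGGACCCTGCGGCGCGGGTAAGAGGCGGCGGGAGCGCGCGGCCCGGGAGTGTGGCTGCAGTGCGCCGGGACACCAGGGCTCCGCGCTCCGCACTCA
ECM1: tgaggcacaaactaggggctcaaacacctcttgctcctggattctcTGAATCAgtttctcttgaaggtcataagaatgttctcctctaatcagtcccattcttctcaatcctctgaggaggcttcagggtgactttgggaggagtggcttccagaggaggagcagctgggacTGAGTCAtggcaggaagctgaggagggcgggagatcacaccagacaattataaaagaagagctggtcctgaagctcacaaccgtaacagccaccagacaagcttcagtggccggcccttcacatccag
FN1: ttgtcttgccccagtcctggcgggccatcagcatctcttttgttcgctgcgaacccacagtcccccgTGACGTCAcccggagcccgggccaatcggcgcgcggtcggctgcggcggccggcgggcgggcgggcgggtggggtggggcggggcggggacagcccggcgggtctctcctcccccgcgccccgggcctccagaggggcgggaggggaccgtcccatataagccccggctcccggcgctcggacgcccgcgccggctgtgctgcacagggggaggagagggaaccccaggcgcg
In ECM1 the matches begin 204 and 78 bases before the gene start, and in FN1 the match begins 183 bases before it. RefSeq windows were matched by symbol for 50 of the 67 genes. On both strands, the AP-1 motif occurred in 2 of these 50 windows (4.0%) and in 7.76% of all 27305 windows, and the cyclic AMP response element in 1 of 50 (2.0%) and in 1.98% of all. GGAATG, the TEAD motif, occurred in 3 of 50 windows (6.0%) against 14.0% of all, GGGCGG (GC box) in 32 of 50 (64.0%) against 44.6%, and CCAAT in 15 of 50 (30.0%) against 35.7%. A match is a description of the letters in a window and not a binding site.

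The induced library held 666 cells and 80359736 counts (median 111582 per cell), and the control library 956 cells and 95350640 counts (median 85821 per cell), with no cell barcode in both. Levels are given as CPM, counts scaled to a common total per library. HRAS stood at 161 CPM (interval 158 to 163) in induced and 109 CPM (107 to 112) in control cells. Reads from the 3′ end cannot separate the transgene from native HRAS, so this is a weak check of the labels. The adrenergic marker PHOX2A stood at 899 CPM in induced and 701 CPM in control cells. It ran against its list, since 13 adrenergic markers together summed to 4923 CPM in induced and 6053 CPM in control cells. A floor of 3 counts corresponds to 0.0373 CPM (induced) and 0.0315 CPM (control).

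A subset of the matrix genes was higher in the induced library, and secreted glycoproteins and inhibitors gave most of the counts. Summed over all 67 genes, matrix counts came to 893 CPM against 382 CPM (here and below, induced against control), a ratio of 2.34 (2.31 to 2.37), or 1.94 (1.91 to 1.96) without TIMP1, the gene with the most counts. At least 1 CPM in either library was found for 39 of the 67 genes, and these are called measured. Using log2 ratios with a pseudocount of 0.1 CPM, 13 of the 39 (33.3%) were higher in the induced library by 2-fold or more, 3 (7.69%) were lower by that much, and 23 were neither. The same calls were met by 5.38% (higher) and 2.24% (lower) of the 17364 genes over the same floor. The median log2 ratio of the 39 genes was 0.26 (order-statistic interval over the genes -0.12 to 1.07), against -0.13 over all measured genes. That interval describes the spread over chosen genes, which are not independent replicates, so it is not a test against all genes.

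**Figure D1:**
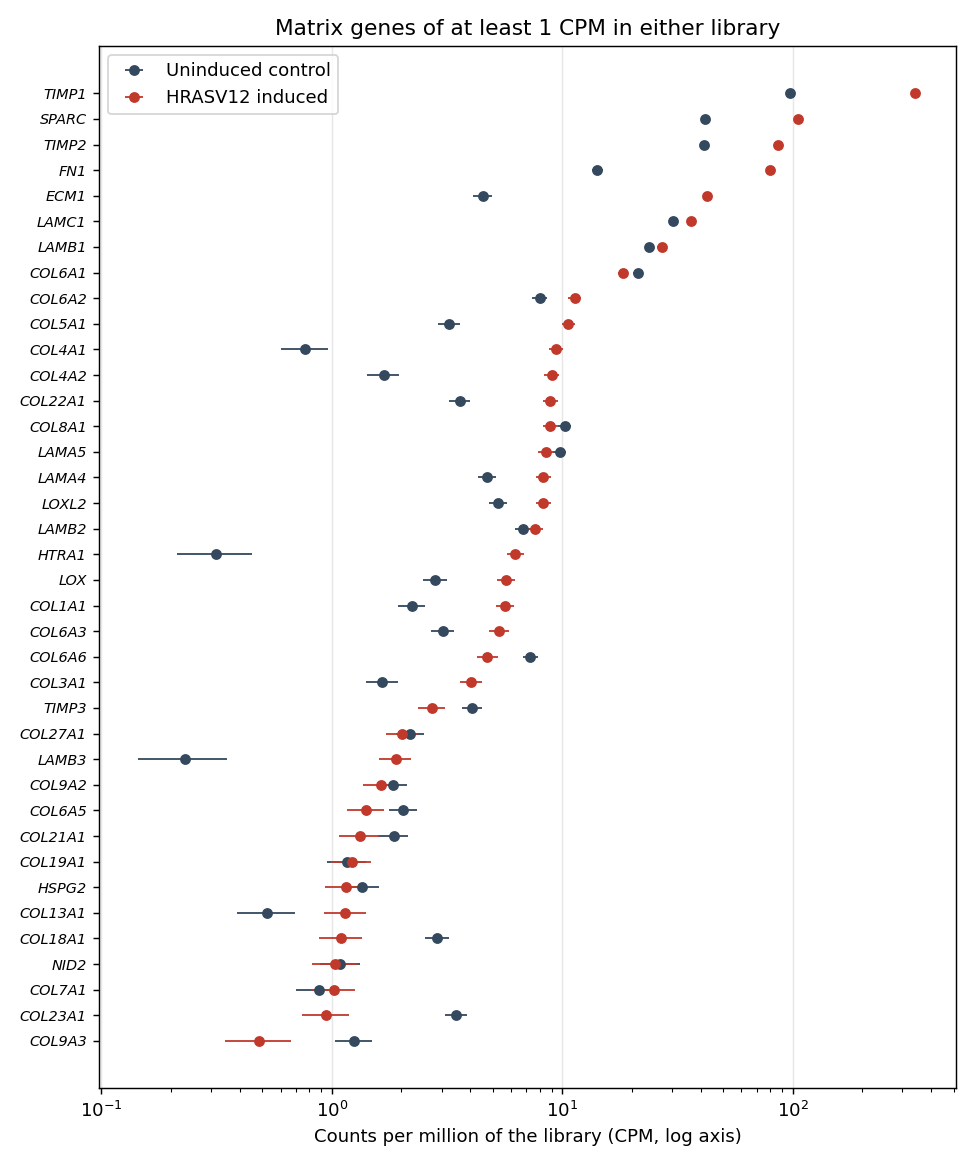
Level of measured matrix genes in the uninduced control (dark) and the HRASV12 induced library (red), in CPM on a log axis, with exact Poisson 95% intervals as bars. TIMP1 lies furthest right in both libraries, and the widest gaps are at COL4A1, HTRA1, ECM1 and LAMB3.

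Several collagen genes were concentrated in a minority of cells with counts of endothelial genes. The 8 genes CD93, EMCN, GIMAP4, CDH5, KDR, ESAM, PLVAP and MMP1 mark these cells, and a cell with a count of at least 3 of them is called an endothelial-marker cell below. There were 43 such cells among the induced cells (6.46%, Clopper-Pearson interval 4.71 to 8.60) and 12 among the control cells (1.26%, 0.650 to 2.18). They held 8.10% of all induced counts but 18.6% of the induced matrix counts. Without them 35 matrix genes were measured, of which 9 were higher and 4 lower by 2-fold or more, against 5.01% and 2.16% of 17313 genes overall. The summed ratio was then 2.11 (2.08 to 2.14) and the median log2 ratio 0.15. The same 9 genes were higher with and without these cells: TIMP1, SPARC, TIMP2, FN1, ECM1, COL5A1, COL22A1, COL3A1 and LAMB3. COL4A2 and COL1A1 were called higher only with them. COL4A1 and HTRA1 were also called higher with them, but without them both fell under 1 CPM and got no call. HTRA1 then stood at 0.988 against 0.0106 CPM and COL4A1 at 0.731 against 0.393 CPM, so the missing calls do not mean that their differences were gone. COL18A1, COL23A1 and COL9A3 were lower either way, and TIMP3 was lower only without them.

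**Figure D2:**
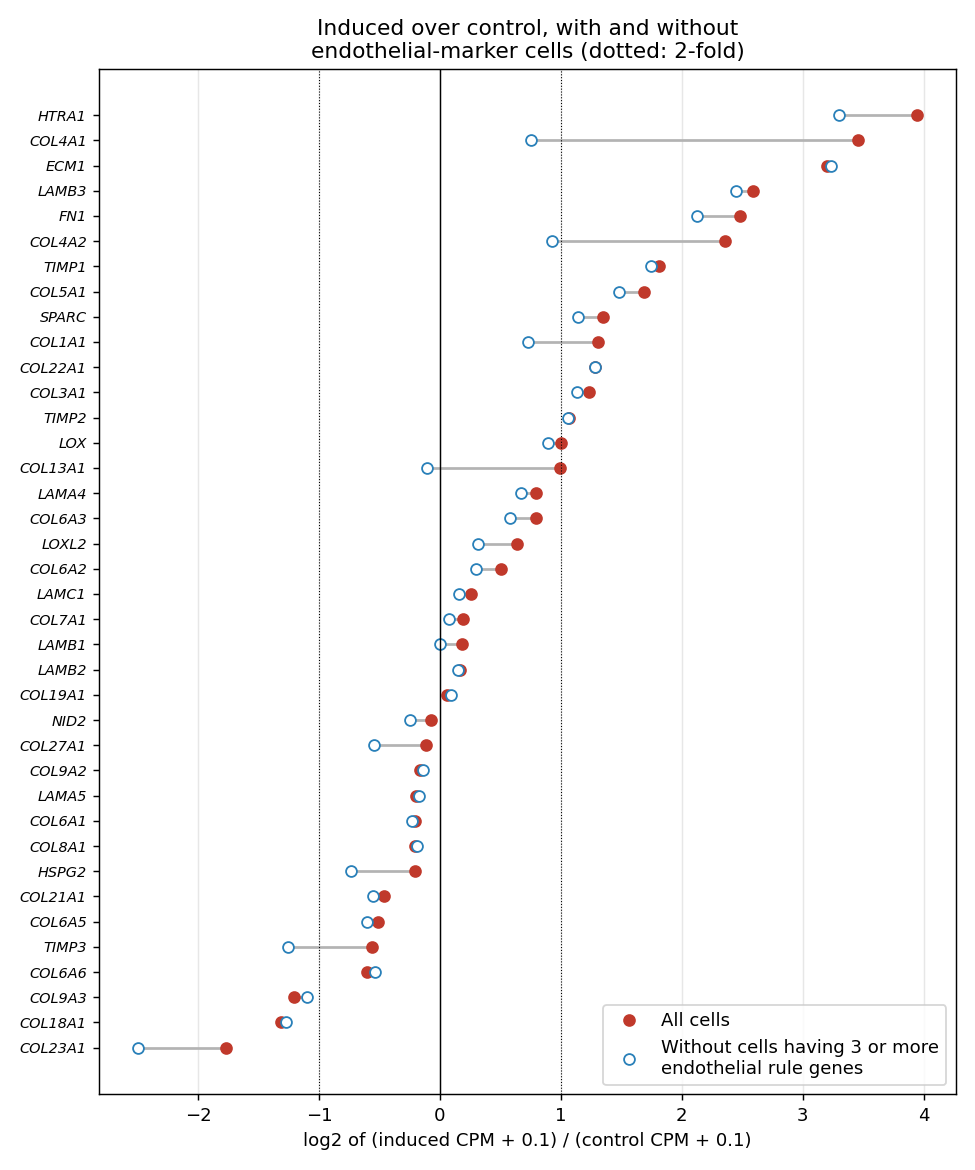
Log2 ratio of induced over control CPM, with 0.1 CPM added to both, for measured matrix genes in all cells (red) and without the endothelial-marker cells (open blue). The grey line between the 2 points is longest for COL4A1, and the open point of HTRA1 rests on 1 control count.

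Both measured collagen IV genes had most of their induced counts in the endothelial-marker cells. COL4A1 (ENSG00000187498.16) and COL4A2 (ENSG00000134871.19) code for the main chains of the collagen IV network, whose shared promoter stretch is printed above. COL4A1 stood at 9.38 against 0.766 CPM (754 and 73 counts), a ratio of 12.3 (9.63 to 15.8). COL4A2 stood at 9.02 against 1.68 CPM (725 and 160 counts), a ratio of 5.38 (4.52 to 6.42). Of the induced counts, 92.8% for COL4A1 and 75.4% for COL4A2 came from the 43 endothelial-marker cells. In the control library, 1 cell with counts of all 8 endothelial genes held 35 of the 73 COL4A1 counts and 45 of the 160 COL4A2 counts. Outside the endothelial-marker cells COL4A1 stood at 0.731 against 0.393 CPM, a ratio of 1.86 (1.20 to 2.91), and COL4A2 at 2.41 against 1.22 CPM, a ratio of 1.97 (1.55 to 2.52). COL18A1 (ENSG00000182871.16), a basement membrane collagen whose end is released as endostatin, went the other way, at 1.10 against 2.87 CPM and a ratio of 0.381 (0.296 to 0.486). The other 5 genes of this group, COL4A3, COL4A4, COL4A5, COL4A6 and COL15A1, were under 1 CPM in both libraries.

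Laminins, the other network of basement membranes, were mostly near level. LAMC1, the gamma chain of most laminins, stood at 36.4 against 30.4 CPM, a ratio of 1.20 (1.14 to 1.26). LAMB1, a beta chain that pairs with it, stood at 27.0 against 23.8 CPM, a ratio of 1.14 (1.07 to 1.21), and the ratio without endothelial-marker cells was 0.999 (0.938 to 1.06). LAMB2 stood at 7.64 against 6.79 CPM and the alpha chain LAMA5 at 8.51 against 9.76 CPM. LAMA4, an alpha chain of vessel and nerve laminins, stood at 8.29 against 4.73 CPM, a ratio of 1.75 (1.55 to 1.98). Its ratio was 2.21 (1.93 to 2.54) with a limit on MALAT1 and mitochondrial percent, and 0.657 (0.426 to 1.05) in the 189 induced and 40 control cells with no TOP2A or MKI67 count at equal depth, a setting chosen after seeing the data. LAMB3 (ENSG00000196878.15), a beta chain of epithelial laminin, was the 1 laminin gene past 2-fold, at 1.89 against 0.231 CPM (152 and 22 counts) and a ratio of 8.20 (5.22 to 13.5). LAMA3, an alpha chain of epithelial laminin, was under 1 CPM. The linkers were near level too, with NID2 (nidogen) at 1.03 against 1.09 CPM and HSPG2 (perlecan) at 1.16 against 1.35 CPM. Without endothelial-marker cells the HSPG2 ratio was 0.569 (0.405 to 0.790).

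Fibrillar collagens, which form the fibres of interstitial matrix, were low in both libraries. Of the 4 measured ones, 3 were at least 2-fold higher in the induced library, against 5.38% of all measured genes. Without endothelial-marker cells it was 2 of 4, against 5.01% of all measured genes. COL5A1 (ENSG00000130635.15), a chain that starts fibril assembly, stood at 10.6 against 3.23 CPM, a ratio of 3.29 (2.89 to 3.76), and of 2.84 (2.48 to 3.27) without endothelial-marker cells. COL1A1 (ENSG00000108821.13), the main chain of collagen I, stood at 5.65 against 2.22 CPM, a ratio of 2.54 (2.15 to 3.01). Its counts were held by few cells: 1 control cell carried 75 of 212 counts, and 41.4% of the induced counts came from endothelial-marker cells, without which the ratio was 1.69 (1.40 to 2.04). Among the cells with no TOP2A or MKI67 count, the COL1A1 ratio was 0.211 (0.161 to 0.278). COL3A1 (ENSG00000168542.14), the chain of collagen III, stood at 4.02 against 1.66 CPM, a ratio of 2.43 (2.00 to 2.95). Of its counts, 150 of 323 lay in 1 induced cell with 2 of the endothelial genes. In the control library 73 of 158 lay in 1 cell with 0 of them. The COL3A1 ratio was 0.472 (0.332 to 0.659) without cells having 2 or more of the endothelial genes. That setting left out the induced cell and kept the control cell. In the cells with no TOP2A or MKI67 count the ratio was 0.413 (0.325 to 0.528). COL27A1, a cartilage collagen, stood at 2.02 against 2.19 CPM. Among the fibrillar genes under 1 CPM, COL11A1, named after its values were seen, had 63 induced and 4 control counts, a ratio of 18.7 (6.95 to 70.7).

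Collagen VI, which forms beaded filaments beside the cell surface, was split among its chains, none of them past 2-fold. COL6A1 stood at 18.4 against 21.3 CPM, a ratio of 0.867 (0.810 to 0.928). COL6A2 stood at 11.4 against 7.99 CPM, a ratio of 1.42 (1.29 to 1.57), and COL6A3 at 5.33 against 3.03 CPM, a ratio of 1.76 (1.51 to 2.05). The alternative chains COL6A5 and COL6A6 stood lower in the induced library, COL6A6 at 4.74 against 7.27 CPM (ratio 0.652, 0.574 to 0.740) and COL6A5 at 1.41 against 2.05 CPM (ratio 0.688, 0.540 to 0.871). In the cells with no TOP2A or MKI67 count the COL6A3 ratio was 0.804 (0.542 to 1.23) and the COL6A6 ratio 1.56 (0.721 to 4.02), both with intervals that span 1.

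The remaining collagens gave differences in both directions at low levels. COL22A1 (ENSG00000169436.17), a fibril-associated collagen of tissue junctions, stood at 8.89 against 3.59 CPM, a ratio of 2.48 (2.17 to 2.83), which was 2.47 (2.16 to 2.82) without endothelial-marker cells. COL9A3 (ENSG00000092758.18), a chain of the fibril-associated collagen IX of cartilage, stood at 0.485 against 1.25 CPM, a ratio of 0.389 (0.264 to 0.563). The other chain measured, COL9A2, stood at 1.63 against 1.84 CPM. COL23A1 (ENSG00000050767.17), a collagen anchored in the cell membrane, had the lowest ratio of all measured matrix genes, 0.273 (0.210 to 0.352), at 0.946 against 3.46 CPM. Of its induced counts 53.9% lay in endothelial-marker cells, and the ratio was 0.151 (0.103 to 0.215) without them. COL13A1, also anchored in the membrane, had a ratio of 2.18 (1.53 to 3.15) with and 0.914 (0.566 to 1.46) without these cells, which held 64.1% of its 92 induced counts. COL8A1, a short chain of vessel walls, stood at 8.87 against 10.3 CPM, a ratio of 0.864 (0.784 to 0.953). COL7A1, the collagen of anchoring fibrils, stood at 1.02 against 0.881 CPM, COL19A1 at 1.22 against 1.16 CPM, and COL21A1 at 1.32 against 1.86 CPM.

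All 3 measured matrix glycoproteins were at least 2-fold higher with and without endothelial-marker cells. Over all measured genes these shares were 5.38% with and 5.01% without those cells. ECM1 (ENSG00000143369.15), a secreted protein that binds perlecan and fibulins, stood at 42.4 against 4.52 CPM (3405 and 431 counts), a ratio of 9.37 (8.48 to 10.4), and of 9.60 (8.66 to 10.7) without endothelial-marker cells. FN1 (ENSG00000115414.19), fibronectin, stood at 79.9 against 14.2 CPM, a ratio of 5.62 (5.30 to 5.96), and of 4.38 (4.12 to 4.66) without them. SPARC (ENSG00000113140.11), which binds collagen and loosens cell adhesion, stood at 106 against 41.6 CPM, a ratio of 2.55 (2.46 to 2.65), and of 2.21 (2.12 to 2.30) without them. The SPARC ratio was 1.92 (1.84 to 2.01) without cells having 2 or more endothelial genes and 1.28 (1.16 to 1.41) in the cells with no TOP2A or MKI67 count, where FN1 was at 3.49 (2.97 to 4.12) and ECM1 at 5.56 (3.91 to 8.16). TNC, tenascin C, was under 1 CPM, with 55 against 26 counts.

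LOX and LOXL2, the crosslinking enzymes among the matrix genes, stood higher in the induced library without being called 2-fold higher. LOX, the lysyl oxidase that crosslinks collagen and elastin, stood at 5.71 against 2.81 CPM, a ratio of 2.03 (1.74 to 2.37) that fell just short of 2-fold once the pseudocount was added. The LOX ratio was 1.31 (1.09 to 1.57) without cells having 2 or more endothelial genes and 1.28 (1.04 to 1.57) with the limit on MALAT1 and mitochondrial percent, and it was 2.20 with TMM scaling and 2.27 with DESeq2 size factors. LOXL2, a relative that acts on collagen IV, stood at 8.29 against 5.29 CPM, a ratio of 1.57 (1.39 to 1.76), and of 1.25 (1.10 to 1.42) without endothelial-marker cells.

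TIMP1 and TIMP2, inhibitors of metalloproteinases, were among the matrix genes with the most counts in both libraries. TIMP1 (ENSG00000102265.12) stood at 342 against 97.1 CPM, a ratio of 3.52 (3.43 to 3.60), and TIMP2 (ENSG00000035862.12) at 86.7 against 41.4 CPM, a ratio of 2.10 (2.02 to 2.18). TIMP2 did not pass 2-fold when ribosomal protein and mitochondrial genes were taken out of the totals, where its ratio was 1.97 (1.89 to 2.04), or in the cells with no TOP2A or MKI67 count, where it was 1.56 (1.35 to 1.81). TIMP3 (ENSG00000100234.11), which binds to the matrix itself, stood at 2.73 against 4.07 CPM, a ratio of 0.670 (0.565 to 0.792). Endothelial-marker cells held 48.4% of its induced counts, and its ratio was 0.402 (0.323 to 0.498) without them. HTRA1 (ENSG00000166033.13), a secreted serine protease that cuts fibronectin and other matrix proteins, stood at 6.27 against 0.315 CPM (504 and 30 counts), a ratio of 19.9 (13.8 to 29.9). All but 1 of the 30 control counts lay in the same single cell that led COL4A1, and 85.5% of the induced counts lay in endothelial-marker cells. The other cells held 73 induced counts and 1 control count of HTRA1.

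The 28 genes under 1 CPM in both libraries had between 1 and 74 counts in the induced and between 1 and 90 in the control library. They were COL1A2, COL2A1, COL5A2, COL8A2, COL9A1, COL10A1, COL11A1, COL11A2, COL12A1, COL14A1, COL15A1, COL16A1, COL17A1, COL20A1, COL24A1, COL25A1, COL26A1, COL28A1, COL4A3, COL4A4, COL4A5, COL4A6, LAMA1, LAMA2, LAMA3, LAMB4, LAMC3 and TNC. Genes close to the floor on the measured side were COL7A1 at 1.02 CPM, NID2 at 1.09 CPM and COL13A1 at 1.14 CPM in their higher library.

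Grouping the cells by how many of the 8 endothelial genes had a count showed several patterns among the matrix genes. In the induced library, 448 cells had none, 175 had 1 to 2, 27 had 3 to 4 and 16 had 5 to 8, and summed matrix counts stood at 625, 1116, 1732 and 3325 CPM in these groups. In the control library they stood at 370 CPM in 740 cells with none, 388 CPM in 204 cells with 1 to 2, and 843 CPM in 11 cells with 3 to 4, and the 1 cell with 5 to 8 had 1766 CPM. COL4A1 and HTRA1 were concentrated at the top: COL4A1 stood at 0.388, 1.40, 8.85 and 501 CPM across the 4 induced groups, and HTRA1 at 0.553, 1.84, 2.69 and 320 CPM. FN1 followed another order, at 34.4, 114, 333 and 126 CPM, with its highest level in the cells with 3 to 4. SPARC stood at 57.4, 150, 252 and 514 CPM, TIMP1 at 233, 483, 643 and 480 CPM, and COL5A1 at 5.26, 16.3, 26.5 and 39.8 CPM. ECM1 was near level, at 43.1, 39.5, 47.3 and 49.0 CPM, as was COL22A1, at 9.09, 8.60, 8.08 and 9.96 CPM. LAMB1 and LAMC1 stood at 20.6 and 30.6 CPM in cells with none and at 158 and 166 CPM in the 16 cells with 5 to 8. In the 11 control cells with 3 to 4 endothelial genes, COL23A1 stood at 33.6 CPM, COL18A1 at 25.9 CPM and TIMP3 at 27.8 CPM, against 2.51, 2.13 and 3.37 CPM in control cells with none. In the 27 induced cells with 3 to 4 these genes stood at 2.12, 1.35 and 3.65 CPM, and in the 16 with 5 to 8 at 23.0, 3.83 and 66.7 CPM.

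**Figure D3:**
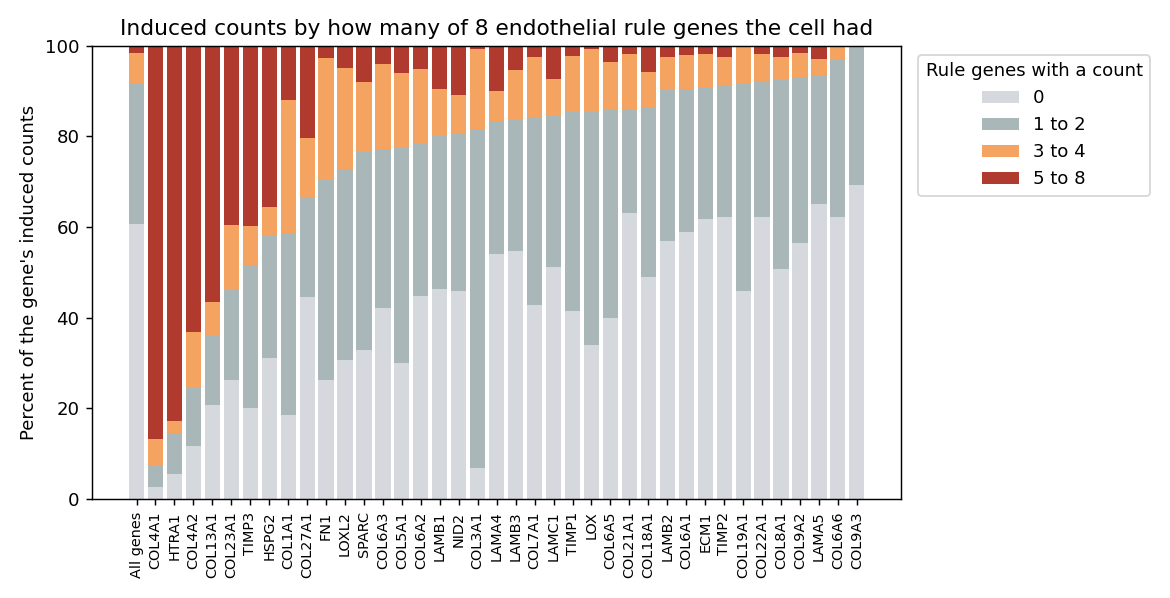
Share of measured matrix genes' induced counts by how many of 8 endothelial genes had a count in the cell, in percent, with all genes in the first bar for comparison. For COL4A1, HTRA1 and COL4A2 most of the bar belongs to the 16 cells with 5 to 8 endothelial genes, whereas ECM1 and TIMP2 look like the bar of all genes.

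Markers of other cell types moved with these groups. Among the 16 induced cells with 5 to 8 endothelial genes, 14 further endothelial genes stood at 2070 CPM in sum and none of them was at 0, against 89.2 CPM in induced cells with none of the 8, and TIE1 stood at 134 CPM, PECAM1 at 95.8 CPM and ERG at 60.5 CPM. The 13 adrenergic markers summed to 1222 CPM in the 16 cells and 5347 CPM in cells with none, with PHOX2A at 41.4 against 951 CPM and CHGA at 5.36 against 512 CPM, and DBH was at 0. MYCN stood at 782 against 384 CPM and HRAS at 73.6 against 167 CPM. The 9 stromal markers summed to 558 against 449 CPM, the 9 mural markers to 1689 against 3750 CPM, the 5 Schwann markers to 20.7 against 9.19 CPM, the 9 immune and erythroid markers to 3.06 against 3.83 CPM, and the 6 epithelial markers to 50.6 against 35.5 CPM. The median depth was 77696 counts in the 16 cells and 104842 in cells with none. In the 27 induced cells with 3 to 4 endothelial genes, the 14 further endothelial genes summed to 302 CPM, with PECAM1 at 2.50 CPM. The 13 adrenergic markers summed to 3801 CPM there, with PHOX2A at 910 CPM and CHGA at 262 CPM. These 27 cells, most of the 43 endothelial-marker cells, therefore lay nearer to cells with none in these markers. Whether the 16 cells belong to the line, and whether any were doublets of different cells, was not tested.

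Because the 2 collagen IV chains share a promoter stretch and a protein, the ratio of their counts was compared between libraries. A ratio between 2 genes in 3′ counts depends on how well each 3′ end is captured, so only its difference between cells is read. COL4A1 had 1.04 counts per COL4A2 count in the induced library (0.938 to 1.15) and 0.456 in the control library (0.341 to 0.605). In cells with under 3 endothelial genes it was 0.303 (0.219 to 0.413) and 0.322 (0.216 to 0.470), so the libraries overlapped there, whereas it was 1.43 (1.27 to 1.61) in the 16 induced cells with 5 to 8. For laminins, LAMB1 per LAMC1 was 0.742 (0.702 to 0.785) and 0.782 (0.739 to 0.826), while LAMA4 per LAMC1 was 0.228 (0.209 to 0.248) against 0.156 (0.141 to 0.172) and LAMA5 per LAMC1 0.234 (0.215 to 0.254) against 0.321 (0.298 to 0.346). Relative to the common gamma chain, LAMA4 was higher and LAMA5 lower in the induced library. COL1A1 per COL1A2, the 2 chains of collagen I, was 8.11 (6.13 to 10.9) against 2.83 (2.16 to 3.73), and 5.12 (3.79 to 7.03) against 2.75 (2.10 to 3.65) in cells with under 3 endothelial genes. COL5A1 per COL5A2 was 11.6 (9.10 to 14.9) against 3.62 (2.84 to 4.66). COL6A1 per COL6A2 was 1.62 (1.49 to 1.76) against 2.66 (2.45 to 2.90). In these counts, partner chains of 1 protein therefore differed unequally between the libraries for collagens I, V and VI. COL1A2 and COL5A2 were under 1 CPM in both libraries. For collagen I, 1 control cell held 75 of the 212 COL1A1 counts, and the intervals do not cover such concentration in few cells.

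For values per cell, every cell was thinned to 53000 counts, which left out 104 induced and 190 control cells. Summed matrix counts per 10000 had a median of 5.47 over 562 induced cells (5th to 95th percentile 2.45 to 27.3) and of 3.58 over 766 control cells (1.75 to 6.79). The control median was passed by 80.8% of the induced cells (77.3 to 84.0) and the control 95th percentile by 33.6% (29.7 to 37.7). The latter share was 34.5% unthinned, 32.7% (28.7 to 36.9) without endothelial-marker cells and 23.5% (20.0 to 27.2) without TIMP1. The difference was therefore shared by many induced cells and was largest in an upper tail. TIMP1 was detected in 98.4% of induced and 95.3% of control cells, TIMP2 in 94.3% and 82.1%, SPARC in 69.2% and 62.7%, FN1 in 65.3% and 40.1%, and ECM1 in 58.5% and 18.0%. LAMC1 was detected in 73.8% and 75.5% and COL6A1 in 56.0% and 66.4%. COL4A1 was detected in 4.80% (3.19 to 6.91) and 2.74% (1.70 to 4.16) and HTRA1 in 4.45% (2.90 to 6.50) and 0.261% (0.0316 to 0.940). Unthinned, ECM1 was found in 68.0% of induced cells and 25.1% of control cells, FN1 in 76.9% and 54.6%, and SPARC in 77.8% and 71.7%. Free RNA can give counts in cells that do not express a gene, and its part in these shares was not tested.

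**Figure D4:**
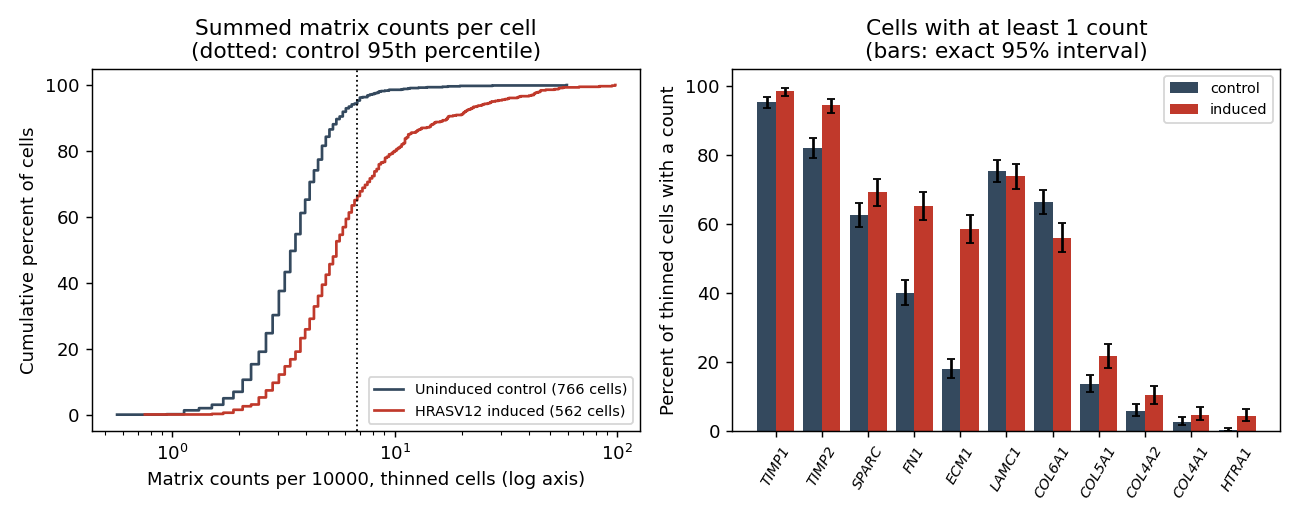
Left, cumulative percent of cells by summed matrix counts per 10000 after thinning to 53000 counts (log axis), for 562 induced and 766 control cells, with the control 95th percentile of 6.79 dotted. Right, percent of thinned cells with at least 1 count of 11 matrix genes, with exact 95% intervals, where ECM1 shows the widest gap (58.5% against 18.0%).

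A few cells carried much of the FN1, SPARC and TIMP1 signal in the induced library. The cells richest in FN1 that together held 50% of its counts numbered 21 (induced) and 110 (control). That number was 55 against 210 for TIMP1, 35 against 102 for SPARC, 28 against 69 for COL5A1 and 81 against 62 for ECM1. For COL4A1 it was 4 against 2 and for HTRA1 4 against 1, where the control library had only 73 and 30 counts. These numbers are not adjusted for the 666 induced and 956 control cells. ECM1 was therefore the matrix gene with a large ratio whose counts were spread over the most induced cells among these.

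A subset of the matrix genes was compared over cells ranked on VIM, the intermediate filament of mesenchymal cells. Of these, TIMP1, ECM1, FN1, SPARC and COL5A1 were among those highest in the induced cells with the most VIM. Thinned cells without the endothelial-marker cells were ranked on VIM and split into terciles, of 177, 176 and 176 induced and 252, 252 and 251 control cells, and no matrix gene was used in the ranking. From the lowest to the highest tercile of the induced cells, ECM1 stood at 11.3, 33.9 and 87.4 CPM and TIMP1 at 127, 259 and 464 CPM. FN1 stood at 23.8, 32.8 and 132 CPM, SPARC at 51.5, 41.8 and 173 CPM, and COL5A1 at 2.24, 4.72 and 18.1 CPM, so these 3 genes were high mainly in the top tercile. TIMP2 spanned less, at 69.8, 86.8 and 109 CPM. In the control library the same terciles gave 3.44, 3.44 and 6.46 CPM for ECM1, 80.3, 92.3 and 122 CPM for TIMP1, and 13.2, 12.2 and 15.0 CPM for FN1. They gave 34.2, 32.6 and 53.2 CPM for SPARC and 2.47, 2.10 and 4.81 CPM for COL5A1. A higher level in the top tercile was therefore not limited to induced cells. LAMA4 ran the other way, at 16.4 (13.9 to 19.2), 5.57 (4.16 to 7.31) and 1.93 (1.14 to 3.05) CPM in the induced terciles and at 5.09, 4.64 and 4.74 CPM in the control terciles. Only the lowest induced tercile lay above the control terciles beyond the counting intervals, and the highest lay below them. COL6A1 had no clear order, at 18.3, 16.5 and 23.2 CPM in induced and 23.9, 21.5 and 20.7 CPM in control cells.

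VIM rose across the terciles because it was used for the ranking, and TOP2A fell across them. VIM itself stood at 173, 964 and 3169 CPM in the induced terciles and at 0, 29.6 and 473 CPM in the control terciles, so the terciles of the 2 libraries do not cover the same range. The lowest control tercile held only cells with 0 VIM counts and the middle one cells with 0 to 4. Control cells tied at 0 were therefore split between them without rank, which limits a comparison of these terciles. TOP2A, a gene of dividing cells, stood at 212, 104 and 71.3 CPM in the induced and 348, 313 and 246 CPM in the control terciles, and its part in the matrix values was not tested. Over the 529 thinned induced cells, Spearman's rho with VIM was 0.58 for TIMP1, 0.56 for ECM1, 0.33 for FN1, 0.08 for SPARC and -0.37 for LAMA4, and that between TIMP1 and ECM1 was 0.42. Over 755 control cells these values were 0.25, 0.13, -0.03, 0.03, -0.04 and 0.23. These are descriptions of cells that share 1 library and 1 depth.

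**Figure D5:**
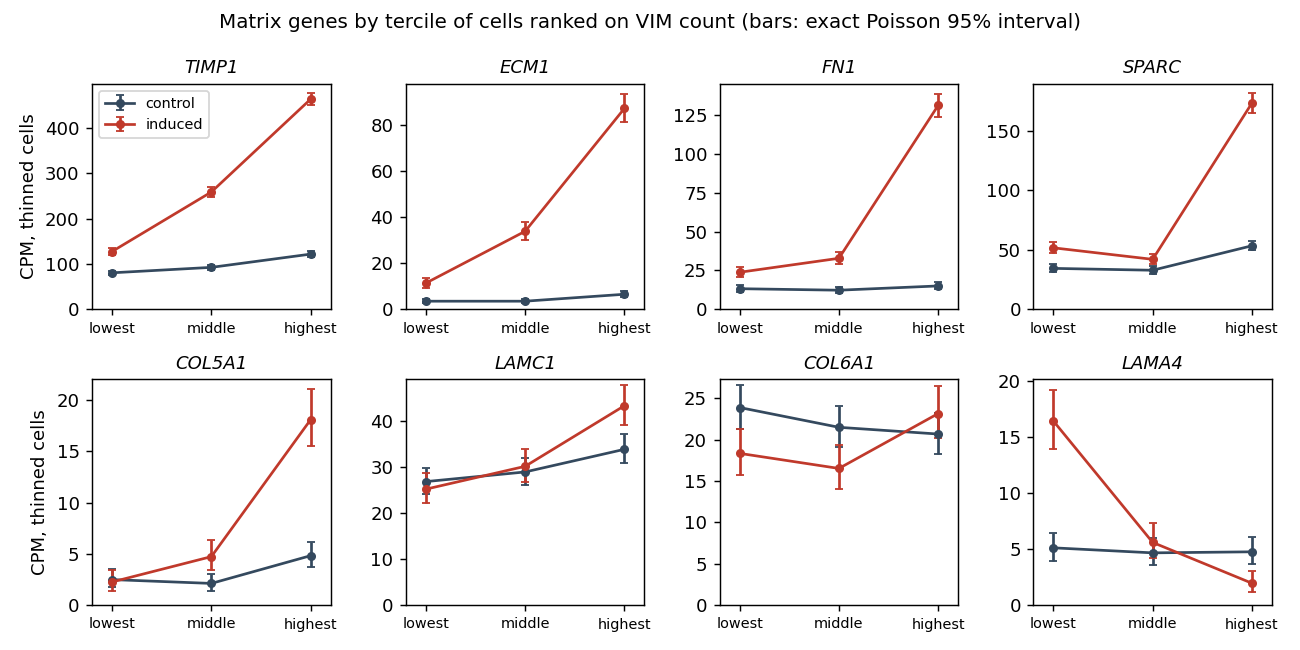
CPM of 8 matrix genes in terciles of thinned cells ranked on their VIM count, without endothelial-marker cells, in induced (red) and control cells (dark), with exact Poisson 95% intervals. TIMP1 and ECM1 step up across all 3 induced terciles, FN1, SPARC and COL5A1 are highest in the top tercile, and LAMA4 falls from 16.4 to 1.93 CPM.

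Enzymes that fold, modify and crosslink collagen were mostly near level. The list had 27 measured genes with a median log2 ratio of 0.04, of which 4 passed 2-fold on the higher side and 1 on the lower. For this and the lists that follow, the shares over all measured genes are the 5.38% (higher) and 2.24% (lower) given above. SERPINH1, the collagen chaperone, stood at 25.5 against 9.99 CPM (ratio 2.56, 2.37 to 2.76), and P4HA2, a prolyl hydroxylase subunit, at 15.3 against 6.22 CPM (2.46, 2.23 to 2.71). LOXL1, a lysyl oxidase relative of elastic fibres, stood at 18.9 against 5.13 CPM, and COLGALT2, a collagen galactosyltransferase, was the other higher gene at 2.89 against 1.30 CPM. PLOD2, a lysyl hydroxylase, stood at 9.83 against 20.0 CPM (0.493, 0.453 to 0.535), and ADAMTS3, a procollagen protease, at 1.43 against 2.79 CPM. These counts were the same without endothelial-marker cells.

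Metalloproteinases and their regulators gave 2 higher and 1 lower of 9 measured genes (median 0.38). Without endothelial-marker cells 7 were measured, of which 0 were higher and 1 was lower. MMP1, an interstitial collagenase that is also 1 of the 8 genes marking those cells, stood at 5.40 against 0.126 CPM with 93.5% of its induced counts in them. Since a count of MMP1 helps to mark a cell, this share and the loss of its call without those cells follow in part from that choice. MMP14, the membrane-bound activator of MMP2, stood at 1.10 against 0.147 CPM (ratio 7.46, 4.22 to 14.2), and its ratio was 0.686 (0.232 to 1.85) without them. MMP2, a gelatinase, stood at 181 against 97.4 CPM, a ratio of 1.85 (1.81 to 1.90). MMP28 stood at 1.97 against 5.59 CPM, and RECK, a membrane inhibitor of metalloproteinases, at 11.8 against 12.5 CPM.

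Matricellular proteins, which signal from the matrix without building it, were higher in 6 and lower in 1 of 11 measured genes, with a median of 1.41 (1.18 without endothelial-marker cells, where the counts were also 6 and 1). CCN2 had 810 induced and 6 control counts, a ratio of 160 (73.3 to 438), and CCN1 stood at 5.53 against 0.262 CPM, a ratio of 21.1 (14.1 to 32.9). SPOCK3 stood at 2.97 against 6.63 CPM and CCN5 at 1.33 against 1.94 CPM. Of 12 elastic fibre genes 2 were higher and 1 lower (median 0.03), and without endothelial-marker cells 1 of 11 was higher and 2 were lower (median -0.23). Named members were LTBP2 at 6.46 against 1.72 CPM, LTBP1 at 1.37 against 0.399 CPM, MFAP2 at 3.47 against 8.14 CPM and MFAP4 at 0.996 against 1.99 CPM. Of 16 matrix proteoglycans 3 were higher and 1 lower, with lumican (LUM) at 64.5 against 18.5 CPM, brevican (BCAN) at 22.0 against 7.02 CPM, ASPN at 1.41 against 3.53 CPM and GPC6 at 7.34 against 14.3 CPM.

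Receptors for the matrix gave 4 higher and 1 lower of 18 measured genes, with a median of 0.03. ITGA5, the alpha subunit of the main fibronectin receptor, stood at 6.01 against 0.220 CPM (ratio 27.3, 17.7 to 44.5), and 65.0% of its induced counts lay in endothelial-marker cells, without which the ratio was 23.9 (12.3 to 53.2). ITGA2, the alpha subunit of a collagen receptor, stood at 15.6 against 1.93 CPM (8.09, 6.93 to 9.50). ITGB5, a beta subunit of a vitronectin receptor, stood at 20.1 against 46.8 CPM (0.429, 0.405 to 0.454), and BCAM, a laminin receptor, at 3.35 against 6.65 CPM.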

How the data were processed

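Libraries were prepared with 10x Genomics Chromium 3′ chemistry, per the labels. The deposited counts are whole numbers for 36027 genes in 1622 cells. Per the submitters' processing notes kallisto and bustools were used, while build, annotation, versions and cell filters are not given in the sources used. The authors deposited the percent of mitochondrial counts per cell and a size factor, a ratio of each cell's total to the others, and mark every cell as a singlet, per the file headers. Cells were assigned to libraries by the type in the authors' annotation.

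Counts were summed per library and scaled to CPM. A gene was measured if either library had 1 CPM or more, and log2 ratios used a pseudocount of 0.1 CPM, which understates low genes. No test was run, since cells are not replicates. Intervals are exact Poisson (levels), exact conditional binomial (ratios) and Clopper-Pearson (shares) at 95%. The interval of the median log2 ratio is an order-statistic interval over genes. The matrix genes and all lists were chosen with earlier results of these data known. Measured matrix genes were named with values. Of each other list the 2 highest and 2 lowest log2 ratios were named, plus MMP1, MMP2, MMP14, SERPINH1 and P4HA2. 1 gene named in the choice of members was not analysed here, and the values of 1 measured gene are not reported here, though it stays in the counts. Counting can drop or divide reads shared by several genes, so single chains of similar genes are uncertain. The calculation was tested on simulated data.

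Python 3.11.15, numpy 2.4.6, scipy 1.17.1, pandas 2.3.3 and R 4.3.3 were used, with edgeR 4.0.16 (TMM) and DESeq2 1.42.0 (size factors) for alternative scalings only. Other alternatives left out cells with 3 or more, or 2 or more, endothelial genes, cells under the 5th percentile of control cells in mitochondrial percent or MALAT1, the 5% of cells with the most counts, or TIMP1. They also changed the totals, pseudocount, floor and fold, used the mean of per-cell CPM, or, chosen after seeing the data, kept cells with no TOP2A or MKI67 count.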

Additional observations from a re-analysis of the deposited data

How the results depend on the processing

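The number of matrix genes at least 2-fold higher was 13 of 39 measured, where 5.38% of all genes were higher. It was 7 of 35 measured without cells having 2 or more endothelial genes, where 4.57% of all genes were higher. With a floor of 10 CPM it was 6 of 11 measured, where 4.34% of all genes were higher. The number at least 2-fold lower was 3, where 2.24% of all genes were lower. It was 1 with a pseudocount of 1 CPM (0.985% of all genes) and 0 with the floor of 10 CPM (1.61% of all genes). A further setting, chosen after seeing the data, kept the 189 induced and 40 control cells with no TOP2A or MKI67 count. There it was 9 of 47 measured, where 12.1% of 18145 genes were lower, against 2.24% in all cells. The summed ratio of 2.34 stayed above 1 in every setting run: 2.53 with TMM scaling, 2.61 with DESeq2 size factors, 2.19 with totals without ribosomal protein and mitochondrial genes, 2.11 without cells with 3 or more and 1.94 without cells with 2 or more endothelial genes, 2.15 with a limit on MALAT1 and mitochondrial percent, 2.26 without the 5% of cells with the most counts, 1.78 in cells with no TOP2A or MKI67 count, 2.38 as the mean of per-cell CPM and 1.94 without TIMP1. The median log2 ratio of 0.26 turned to -0.055 without cells having 2 or more endothelial genes. The share of induced cells above the control 95th percentile was 23.5% without TIMP1. Endothelial-marker cells held 32.6% of induced matrix counts when defined by 2 or more genes, 8.60% by 4 or more, and 9.67% when cells were thinned first. The ratio of COL3A1 turned to 0.472 without cells having 2 or more endothelial genes and to 0.413 in cells with no TOP2A or MKI67 count, where that of COL1A1 turned to 0.211 and HTRA1 gave no ratio. That setting also moved LAMA4 to 0.657, COL6A3 to 0.804, COL6A6 to 1.56, SPARC to 1.28, TIMP2 to 1.56, COL5A1 to 2.03, HSPG2 to 0.426, TIMP3 to 0.372, COL23A1 to 0.107, COL9A3 to 0.243, COL4A1 to 34.5 and COL4A2 to 16.1. Under the limit on MALAT1 and mitochondrial percent, LAMA4 was at 2.21, COL6A3 at 2.27, COL3A1 was at 1.71 and LOX at 1.28. The cause of these differences was not tested, except that settings with a higher floor or fewer cells rest on fewer genes or counts.

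Scaling moved the median of all measured genes from -0.13 to -0.01 with TMM, 0.04 with DESeq2 size factors and -0.24 with totals without ribosomal protein and mitochondrial genes. All genes at least 2-fold higher and lower numbered 934 and 389, 1117 and 252 with TMM, 1234 and 212 with DESeq2 size factors, and 901 and 695 with those totals, and the matrix genes 13 and 3, 15 and 3, 15 and 3, and 13 and 3. No paired analysis was possible because each group had 1 library.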
